A study of Mus musculus with 3 samples.

Results

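The alpha cells of the WT islet library were selected on their hormone transcripts, as the barcodes in which *Gcg*, the proglucagon gene, took 15% or more of all transcripts counted, with *Ins2* under 10%, *Sst* under 2% and *Ppy* under 2%. The rule took 2376 of the 12000 WT barcodes, or 19.8% (exact 95% interval 19.1% to 20.5%), out of 25524 barcodes in the whole series. They were set against 8271 WT beta cells, with *Ins2* at 20% or more and *Gcg* under 3%, and against 621 WT delta cells, with *Sst* at 5% or more and *Gcg* under 5%. A pair of barcodes met the limits of both the beta and the delta class, that is 2 cells.

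The series asked how islet cells change when Taf4, a subunit of the general transcription factor TFIID, is inactivated in beta cells of C57/Bl6 mice. Single-cell RNA-seq was run on 300 islets of 1 WT mouse and, for each mutant library, on 300 islets pooled from 2 TAF4 KO mice, 1 week or 5 weeks after inactivation. The mutants carried floxed Taf4 alleles and a tamoxifen-inducible Cre driven from *Ins1*, a gene of beta cells. The WT label gives no Cre or tamoxifen, while the methods of the study describe tamoxifen-treated controls with the same Cre and intact Taf4. Islets were kept in culture for 24 h, dissociated with Accutase, sorted for live cells and captured by 10X Chromium, which counts the 3' end of each transcript once through a unique molecular identifier (UMI). From the WT library alone, the authors had removed cells high in hormones of more than 1 class and called doublets, and had brought the library to 12000 cells. With 1 library per condition there was no replicate and no test was made, so all intervals, given in parentheses, are exact 95% intervals that cover counting error only.

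The WT label states a male mouse, but the library held 17357 UMIs of *Xist*, the RNA of X inactivation, and 0 UMIs of *Ddx3y*, *Eif2s3y*, *Kdm5d* and *Uty*, which allows each Y-linked gene up to 0.154 UMIs in 1000000 of all UMIs (CPM). Of the alpha cells, 1855 (78.1%) held *Xist*, with 4157 UMIs in all. Both mutant libraries expressed the Y-linked genes. The comparisons of alpha with beta and delta cells below lie within the WT library, whereas any difference from the mutant libraries cannot be told apart from this difference in sex-linked transcripts, from the animal or from the library. The WT library shared 2 barcodes with the 1-week and 33 with the 5-week library, and 3 of these were alpha cells. *Taf4* was counted at 5.24 CPM of all UMIs in WT, 8.47 at 1 week and 4.06 at 5 weeks over all cells, and since the sources used here do not say which part is deleted, these 3' counts check neither label.

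Alpha cells sit mostly at the rim of the mouse islet and release glucagon, which raises blood glucose by acting on the liver. They cut proglucagon with the convertase PC2, take up amino acids that stimulate their secretion, and are held in their identity by transcription factors. Beta cells instead make insulin and sense glucose through the transporter GLUT2, and delta cells make somatostatin, which inhibits both.

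Alpha cells held fewer UMIs than beta cells. They came to 2014234 UMIs together, with a median of 758 UMIs per cell (lowest 500, highest 3008), against 1656 in beta cells and 622 in delta cells. Hormone transcripts took a large and unequal part of these totals, so from here on levels are CPM of the UMIs left after *Gcg*, *Ins1*, *Ins2*, *Sst*, *Ppy*, *Pyy* and *Iapp*. Without them, the median fell to 443 UMIs in alpha, 524 in beta and 413 in delta cells. A median of 298 genes was detected per alpha cell, and 13199 of 16277 listed genes had a UMI in at least 1 alpha cell. Mitochondrially encoded transcripts made up 4.69% of UMIs in alpha, 3.42% in beta and 5.41% in delta cells.

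The hormones that chose the cells are given as a description. *Gcg* took 34.7% of all alpha UMIs, and the middle 90% of cells ran from 21.9% to 44.8% around a median of 33.9%. *Ins2* took 2.69%, *Ppy* 0.305% and *Sst* 0.0465% of alpha UMIs. The *Gcg* limit fell in a sparse range, with 35 WT barcodes at 10% to 15%, 11 at 5% to 10% and 2815 at 15% or more. Just inside it, 25 alpha cells with *Gcg* at 15% to 18% had *Ttr* at 36096 CPM (32869 to 39555) and the acinar gene *Try5* at 6370 CPM. Just outside, 13 barcodes at 12% to 15% had *Ttr* at 34966 CPM (31004 to 39294) and *Try5* at 14011 CPM, against 1345 CPM of *Try5* over all alpha cells. Of the barcodes past the *Gcg* limit, 400 were left out for *Ppy*, 43 for *Ins2*, 4 of them for both, and 0 for *Sst*. The classes had abrupt edges in a library from which the authors had removed double-hormone cells, and the part of that removal was not tested. Of barcodes with *Ins2* at 20% or more, 133 had *Gcg* at 3% to 4%, but 2 had it at 4% to 5%.

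**Figure D1:**
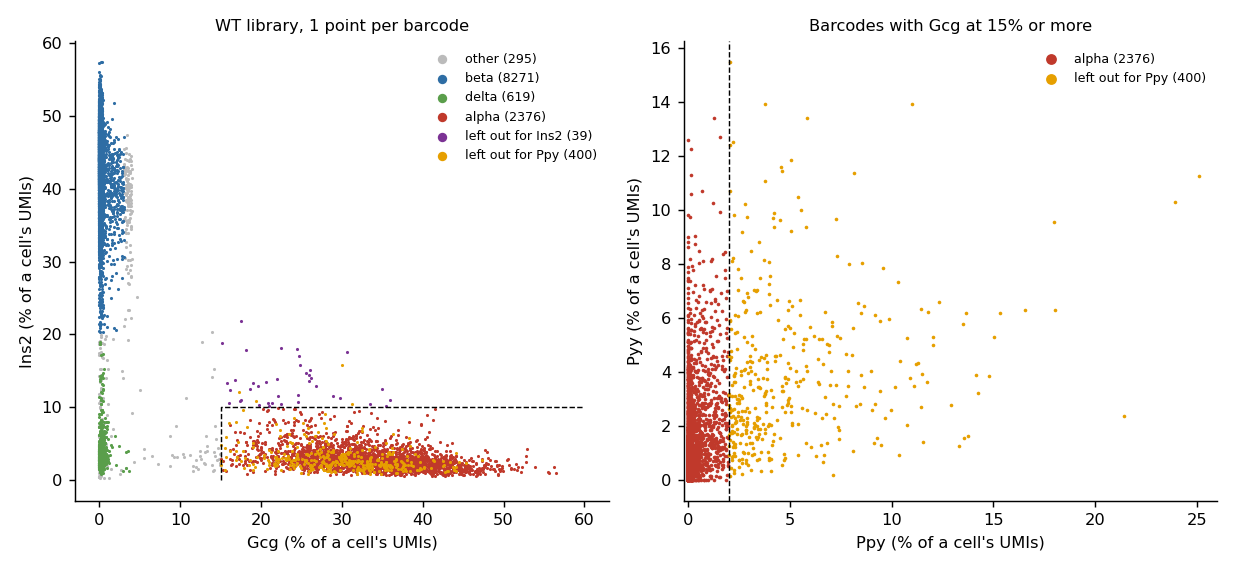
Left, the share of Gcg (x axis, % of a barcode's UMIs) against that of Ins2 (y axis, %) in the WT library, 1 point per barcode, coloured by class, with the dashed limits of the rule at 15% and 10%; the 2 barcodes in both the beta and delta class are drawn as beta. Right, Ppy against Pyy (both % of UMIs) in barcodes with Gcg at 15% or more, with the dashed limit at 2%. The 2376 alpha cells form a separate cloud at low Ins2, while on the right the 400 barcodes left out for Ppy continue the alpha cloud without a gap.

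The 5 marker genes given for alpha cells were high in the class, *Gcg* by its rule. *Ttr*, which encodes transthyretin, a carrier of thyroid hormone and retinol, had 81448 UMIs in alpha cells, 14795 in beta and 270 in delta cells, or 68518, 2883 and 914 CPM. It was thus 23.8-fold higher than in beta cells, and its log2 ratio over delta cells was 6.23 (6.06 to 6.41). *Gpx3*, a secreted glutathione peroxidase, had 1729 CPM in alpha, 79.9 in beta and 602 in delta cells. *Irx2*, an Iroquois homeobox factor, had 123 CPM in alpha, 5.07 in beta and 13.5 in delta cells. *Etv1*, an ETS factor, had 671 CPM (625 to 719) in alpha and 44.0 in beta cells, but 514 CPM (436 to 603) in delta cells, so it separated alpha from beta cells and hardly from delta cells. Of the other 11 alpha markers listed, 9 of the 10 tested were at least 2-fold higher in alpha than in beta cells and 6 of the 8 tested than in delta cells, where 2.63% and 3.69% of all genes tested were. Among them *Gc*, the vitamin D binding protein, stood at 123 CPM in alpha and 118 CPM in delta cells.

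Since droplets also take up RNA free in the suspension, shares of cells with a UMI were compared after every cell was thinned to 500 UMIs, which left out no cell. *Ttr* was then found in 99.7% of alpha, 34.0% of beta, 23.0% of delta and 16.2% of 37 acinar cells, the last a class that should lack it (median depths before thinning 758, 1656, 622 and 1926 UMIs). Unthinned, these shares were 99.8% in alpha and 71.7% in beta cells. *Etv1* was found in 18.6% of alpha, 0.798% of beta and 14.7% of delta cells. *Irx1* was found in 95 of 2376 alpha, 3 of 8271 beta and 1 of 621 delta cells, and *Irx2* in 3.87%, 0.0967% and 0.322% of them. After thinning 0 of 37 acinar cells held any of these 3 factors, with an upper bound of 9.49% for each. At this depth few single alpha cells showed *Irx1* or *Irx2*, so the levels below are sums over cells.

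The promoters of marker and leading genes were read from the RefSeq promoter table for GRCm38.p6 (mm10), which gives 250 bases before to 50 bases after a gene's start and held 19 of the 28 genes looked up. They are shown for *Gcg*, whose transcripts define the cells, for *Cryba2*, a leading alpha gene, and for the markers *Irx2* and *Gpx3*. A search on both strands looked for the TATA box, with the letters TATAAA, at which the basal transcription machinery can assemble. It also looked for a core of forkhead factors, a family to which Foxa1 and Foxa2 of endocrine cells belong, with the letters TGTTTAC. The last was a core bound by large Maf factors, to which Mafa of beta cells belongs, with the letters TGCTGA. Capitals mark each match, or its reverse complement, and the 3 motifs do not overlap one another in the windows shown. All are written 5' to 3' on the gene's own strand.
Gcg, chr2:62483604-62483903, minus strand: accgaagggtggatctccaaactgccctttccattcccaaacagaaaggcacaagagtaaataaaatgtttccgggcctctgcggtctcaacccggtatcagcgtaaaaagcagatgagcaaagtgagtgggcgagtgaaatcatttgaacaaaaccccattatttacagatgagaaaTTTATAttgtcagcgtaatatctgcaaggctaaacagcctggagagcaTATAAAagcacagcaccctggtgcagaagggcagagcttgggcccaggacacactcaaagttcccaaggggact
Cryba2, chr1:74893094-74893393, minus strand: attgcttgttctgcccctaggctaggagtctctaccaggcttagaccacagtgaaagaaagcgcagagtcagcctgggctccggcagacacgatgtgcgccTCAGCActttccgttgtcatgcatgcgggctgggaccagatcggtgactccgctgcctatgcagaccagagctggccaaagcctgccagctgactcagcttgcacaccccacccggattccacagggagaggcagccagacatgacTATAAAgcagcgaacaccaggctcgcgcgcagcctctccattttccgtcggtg
Irx2, chr13:72628570-72628869, plus strand: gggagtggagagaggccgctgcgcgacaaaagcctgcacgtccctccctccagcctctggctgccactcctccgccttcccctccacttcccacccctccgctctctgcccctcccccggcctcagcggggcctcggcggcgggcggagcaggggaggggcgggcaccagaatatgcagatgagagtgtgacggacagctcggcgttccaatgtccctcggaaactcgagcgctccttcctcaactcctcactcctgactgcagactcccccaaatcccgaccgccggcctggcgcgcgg
Gpx3, chr11:54902604-54902903, plus strand: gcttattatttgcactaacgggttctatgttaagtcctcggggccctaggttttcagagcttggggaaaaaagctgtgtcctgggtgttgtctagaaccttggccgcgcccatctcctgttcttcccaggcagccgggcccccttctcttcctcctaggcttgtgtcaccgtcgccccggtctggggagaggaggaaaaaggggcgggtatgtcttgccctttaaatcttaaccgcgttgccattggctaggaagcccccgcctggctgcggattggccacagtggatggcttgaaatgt
The *Gcg* window held the TATA box on its own strand with its first base at -24 from the start, and on the other strand at -72. *Cryba2* held the TATA box at -3 and the Maf core on the other strand at -149, while the *Irx2* and *Gpx3* windows held none of the 3 motifs. Among the 19 genes, the TATA box was found for 4, the forkhead core for 3 and the Maf core for 4. The promoter of *Ttr* was not searched, so these counts are lower limits if it is among the 19. Of all 32851 windows of the promoter table, the shares that held these motifs were 13.6%, 3.65% and 19.5%, counted per window and not per gene. The 3 genes with the forkhead core were the thymosin genes *Tmsb15b1*, *Tmsb15l* and *Tmsb15b2*, the first 2 of which share 1 window. These matches describe letters and not bound sites.

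Against beta cells, most genes that differed were lower in alpha cells on this scale, and the genes that were higher formed a small set with large ratios. A gene entered a comparison if the 2 classes held 100 or more of its UMIs, which 6724 genes did, and 177 (2.63%) were 2-fold or more higher in alpha cells and 1118 (16.6%) were 2-fold or more lower. The median log2 ratio of all these genes was -0.35, with the middle 50% from -0.77 to 0.03. The balance depended on the total: with hormones left in the total, which shifts every log2 ratio by the same amount, the median was 0.54 and the counts were 1365 higher and 322 lower, and with each ratio taken less the median they were 347 and 637. The share of higher genes among those called was thus 13.7%, 80.9% and 35.3%, so directions near 0 depend on the total. Most lists below are therefore given on more than 1 scale. Against delta cells, 73 (3.69%) of 1978 genes were higher in alpha cells and 116 (5.86%) lower, with a median of -0.16, and 55 and 180 with hormones in the total, or 87 and 79 less the median.

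Genes higher than in both other classes numbered 43 of 1975 (2.18%), and 42 with hormones in the total. The 25 leading genes, ranked by the interval bound nearest to 0, stayed past 2-fold against beta cells under every alternative. Against delta cells the 22 that were recomputed did so except among cells with at least 1000 UMIs, where the log2 ratio was 0.99 for *Irx2*, 0.68 for *Grb10* and 0.55 for *Mamld1*, and where 1 more gene fell short.

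**Figure D2:**
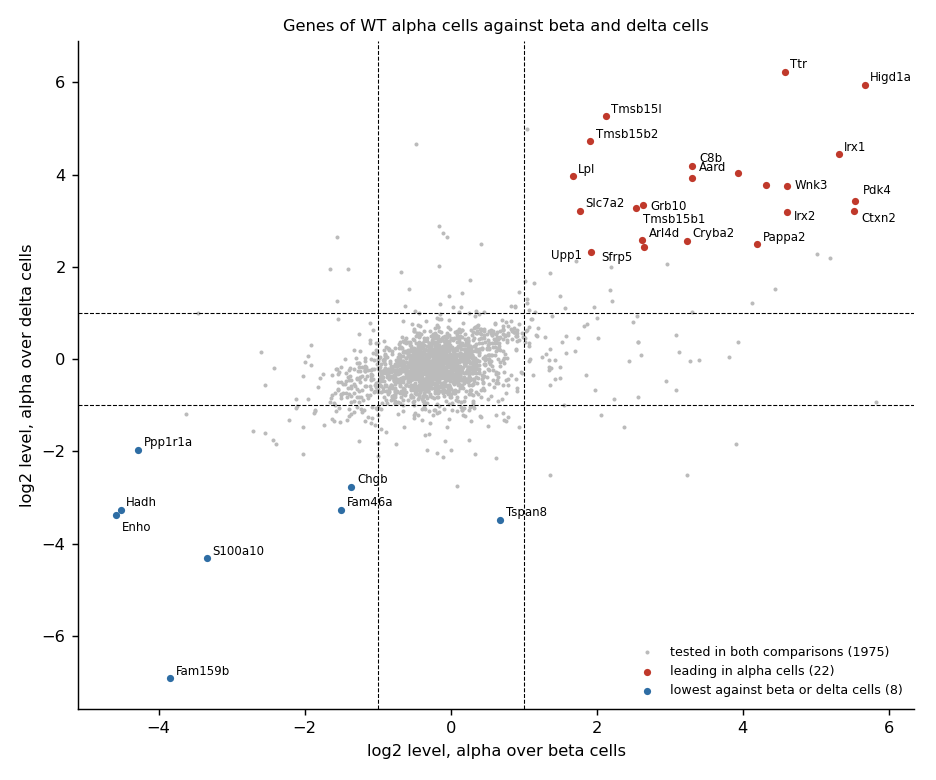
Log2 ratio of level in alpha over beta cells (x axis) and over delta cells (y axis) for the 1975 genes with at least 100 UMIs in each pair of classes, on the scale without hormones, with the same alpha cells in both axes; dashed lines mark 2-fold. The 22 leading genes tested in both comparisons, in red, lie at the upper right, from Ttr and Higd1a at the top to Upp1 and Sfrp5, and a gene with 0 delta UMIs is drawn at the bound that 3 UMIs would give.

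First in this ranking was *Higd1a*, a small inner membrane protein of mitochondria linked to hypoxia. It had 745 UMIs in alpha cells, 63 in beta and 0 in delta cells, or 627 CPM (583 to 673), 12.3 CPM and under 10.2 CPM, at least 61.8-fold higher in alpha than in delta cells if 3 UMIs are allowed there. *Pdk4*, the kinase that switches off pyruvate dehydrogenase, had 129, 12 and 0 UMIs, with a log2 ratio of 5.54 over beta cells (4.68 to 6.53) and, with 3 UMIs allowed in delta cells, a level at least 10.7-fold theirs. *Upp1*, uridine phosphorylase, had 204, 54.2 and 40.6 CPM in the 3 classes, and *Lpl*, lipoprotein lipase, had 368, 116 and 23.7 CPM. Enzymes and metabolic proteins were thus part of the leading set beside the identity factors.

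Secreted and surface proteins made up another part of it. *Pappa2*, a protease of IGF binding proteins, had 399 CPM in alpha, 21.6 in beta and 71.1 in delta cells. *C8b*, a complement component, had 124 CPM in alpha, 12.5 in beta and 6.77 in delta cells. *Sfrp5*, a secreted Wnt antagonist, had 183, 29.2 and 33.8 CPM, and *Vgf*, a precursor of granule peptides, 53.0, 11.5 and 3.38 CPM. The delta value of *C8b* rests on 2 UMIs, with a log2 ratio over delta cells of 4.19 (2.31 to 7.25).

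Signalling and structural genes followed. *Wnk3*, a kinase that acts on chloride cotransporters, had 276 CPM in alpha, 11.3 in beta and 20.3 in delta cells. *Grb10*, an adaptor that dampens insulin receptor signalling, had 103, 16.6 and 10.2 CPM. *Cryba2*, a crystallin, had 718 CPM (671 to 768) in alpha, 76.0 in beta and 122 in delta cells. The thymosin genes *Tmsb15b1*, *Tmsb15b2* and *Tmsb15l*, whose products bind actin monomers, had 195, 358 and 260 CPM in alpha cells, and 33.7, 94.9 and 59.8 CPM in beta cells. These are near-identical copies, and the annotated *Tmsb15l* (chrX:136954988-136976874) spans both others, so how reads were split between them is uncertain. *Ctxn2*, *Aard*, *Mamld1* and *Arl4d* were also in the set, with log2 ratios over beta cells of 5.52, 3.30, 4.76 and 2.62.

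Transcription factors of alpha cells were for the most part higher than in beta cells, and fewer of them were higher than in delta cells. Of 10 listed alpha factors tested against beta cells, 6 were at least 2-fold higher and 0 lower, where 2.63% and 16.6% of all genes were. Their median log2 ratio was 3.60 beside -0.35 over all genes. Among the higher ones was *Irx1*, an Iroquois homeobox factor like *Irx2*, with 174 UMIs in alpha, 19 in beta and 2 in delta cells, or 146, 3.70 and 6.77 CPM. Its log2 ratio was 5.31 (4.62 to 6.07) over beta cells and 4.44 (2.56 to 7.49) over delta cells. *Irx2*, *Etv1* and *Smarca1* were also among them, with log2 ratios over beta cells of 4.60, 3.93 and 3.28.

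Against delta cells, 3 of 8 tested alpha factors were higher, among them *Irx1* and *Irx2*, and 1 was lower, where 3.69% and 5.86% of all genes were. The lower one was *Tshz2*, a zinc finger factor at 126 CPM in alpha and 315 CPM in delta cells. *Smarca1*, a chromatin remodeller, had 153 CPM (132 to 177) in alpha and 159 CPM (117 to 211) in delta cells, but 15.8 CPM in beta cells. *Peg3*, an imprinted zinc finger gene, was at 1527 CPM in alpha and 1721 CPM in beta cells, a log2 ratio of -0.17 that lay above the median of all genes.

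Factors that all endocrine cells share showed small ratios to beta cells and a median below that of all genes against delta cells. Of 10 tested against beta cells, 0 were higher and 1 was lower, where 2.63% and 16.6% of all genes were. Their median log2 ratio was -0.34, close to the median of all genes, -0.35, and turns to 0.54 with hormones in the total. *Insm1*, a zinc finger factor of endocrine differentiation, was the lower one, at 79.1 CPM (63.9 to 96.8) in alpha, 320.4 CPM in beta and 220 CPM in delta cells. *Isl1*, a LIM homeobox factor, had 306 CPM in alpha, 246 in beta and 596 in delta cells. *Pax6*, which is needed for all islet hormones, had 176 CPM in alpha, 298 in beta and 328 in delta cells. *Neurod1* had 131 CPM in alpha and 248 in beta cells, and *Nkx2-2* 96.7 and 132 CPM. Against delta cells 0 of 6 tested were higher and 1, again *Insm1*, was lower, where 3.69% and 5.86% of all genes were. Their median was -0.87 beside -0.16 over all genes, and 4 were lower with hormones in the total.

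All 6 beta factors tested were at least 2-fold lower in alpha cells, where 16.6% of all genes were, with a median log2 ratio of -3.32. *Mafa*, which drives insulin transcription, had 30 UMIs in alpha and 2064 in beta cells, *Nkx6-1* 38 and 1945, and *Pdx1* 16 and 578. These counts in alpha cells were low, and they are set against those of beta cells further on. The part of free RNA in them was not tested.

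**Figure D3:**
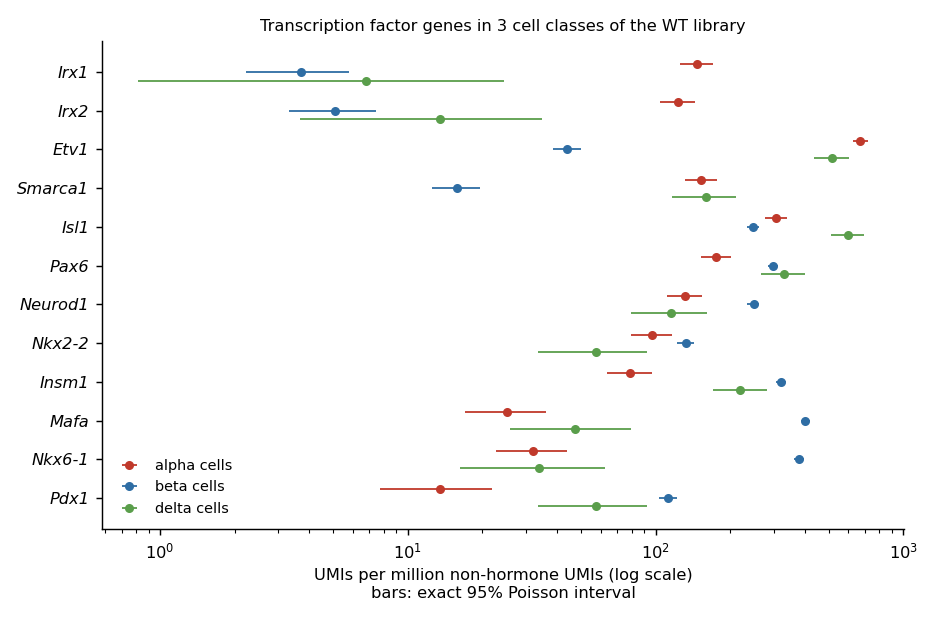
Level of 12 transcription factor genes (x axis, CPM of UMIs without hormones, log scale) in alpha, beta and delta cells of the WT library; bars are exact 95% Poisson intervals from the summed UMIs. Irx1 and Irx2 are highest in alpha cells, Etv1 and Smarca1 are similar in alpha and delta cells, and Mafa, Nkx6-1 and Pdx1 are highest in beta cells.

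Genes of hormone processing and of the secretory granule went in both directions. Of 14 tested against beta cells, 4 were higher and 4 lower, where 2.63% and 16.6% of all genes were. Their median was -0.14 and becomes 0.74 with hormones in the total. Less the median of all genes, 6 were higher and 4 lower, with a median of 0.21. *Pcsk2*, the convertase PC2 that makes glucagon, had 3459 CPM (3354 to 3567) in alpha, 2131 in beta and 1925 in delta cells, a log2 ratio of 0.70 over beta cells. *Pcsk1*, the convertase PC1/3 that acts on proinsulin, had 15.1 CPM (8.97 to 23.9) in alpha and 435 CPM in beta cells, a log2 ratio of -4.84. *Pcsk1n*, which encodes the inhibitor proSAAS, had 18047 CPM in alpha, 6110 in beta and 8394 in delta cells. *Scg5*, the chaperone 7B2 of PC2, had 3048, 1423 and 1661 CPM.

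The granins divided. *Chgb* was at 533 CPM in alpha, 1365 in beta and 3613 in delta cells, and *Scg2* at 702, 2854 and 2933 CPM, so both were lower in alpha cells than in either class. *Chga* was at 3374 CPM in alpha, 5476 in beta and 2588 in delta cells, within 2-fold of both. *Gnas*, the locus of the stimulatory G protein subunit and of overlapping imprinted transcripts, had 3953, 978 and 2869 CPM. *Slc30a8*, the granule zinc transporter, was near beta cells at 771 against 861 CPM, but above delta cells at 105 CPM, a log2 ratio of 2.88 (2.36 to 3.44).

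Genes of amino acid transport and metabolism were for the most part higher than in delta cells. Of 9 tested, 6 were at least 2-fold higher in alpha than in delta cells and 0 lower, where 3.69% and 5.86% of all genes were. Their median was 1.49 beside -0.16 over all genes, and 6 were higher and 1 lower with hormones in the total. Against beta cells 3 of 12 were higher and 2 lower, where 2.63% and 16.6% of all genes were. Their median was -0.06 and becomes 0.82 with hormones in the total. Less the median of all genes, 4 were higher and 0 lower, with a median of 0.29. *Slc7a2*, a transporter of arginine and lysine, had 506 CPM (466 to 548) in alpha, 148 in beta and 54.1 in delta cells. *Slc38a5*, a glutamine transporter of alpha cells, had 92.5, 2.53 and 20.3 CPM.

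Other carriers were higher than in delta cells alone. *Slc38a4* had 113 CPM in alpha, 121 in beta and 16.9 in delta cells, *Slc7a8* 95.9, 72.1 and 16.9 CPM, and *Slc3a2*, the shared heavy chain of several carriers, 86.7, 87.9 and 33.8 CPM. The lower genes against beta cells were *Slc7a5*, the leucine carrier, at 24.4 against 54.0 CPM, and *Asns*, asparagine synthetase, at 33.7 against 82.6 CPM.

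Glucose genes were lower than in beta cells or not different by 2-fold. Of 12 tested, 0 were higher and 7 lower, where 2.63% and 16.6% of all genes were, with a median of -1.12. With hormones in the total, 1 was higher and 3 lower with a median of -0.24. Less the median of all genes, 0 were higher and 3 lower, with a median of -0.77. *Slc2a2*, the transporter GLUT2, had 20 UMIs in alpha and 3173 in beta cells, or 16.8 and 618 CPM. *G6pc2*, the islet glucose-6-phosphatase, had 42.9 CPM in alpha and 1285 in beta cells. *Pkm*, pyruvate kinase, had 204 against 512 CPM and *Aldoa*, aldolase, 193 against 426 CPM. Against delta cells 0 of 5 tested passed 2-fold in either direction.

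Channels differed in few members. Of 14 tested against beta cells, 2 were higher and 1 lower, where 2.63% and 16.6% of all genes were. Their median was -0.10, which becomes 0.78 with hormones in the total. Less the median of all genes, the counts stayed at 2 and 1, with a median of 0.24. *Kcnk3*, a background potassium channel, had 91 UMIs in alpha, 20 in beta and 6 in delta cells, or 76.6, 3.90 and 20.3 CPM. *Scn3a*, a sodium channel, had 53.0, 14.0 and 60.9 CPM. *Trpm5*, a cation channel of beta cells, had 11.8 CPM in alpha and 462 CPM in beta cells. The subunits of the ATP-sensitive potassium channel had close levels in alpha and beta cells on this scale, *Abcc8* at 355 and 377 CPM and *Kcnj11* at 32.8 and 34.9 CPM, with log2 ratios of -0.09 (-0.24 to 0.07) and -0.09 (-0.63 to 0.42).

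Among receptors, 2 AMPA receptor subunits were higher and the kainate receptor subunit *Grik5* was not, with a log2 ratio over beta cells of 0.07. Of 14 tested against beta cells, 2 were higher and 6 lower, where 2.63% and 16.6% of all genes were, with a median of -0.45. With hormones in the total these were 4 and 5, with a median of 0.44. Less the median of all genes, 3 were higher and 6 lower, with a median of -0.10. *Gria2*, an AMPA receptor subunit, had 398 CPM (363 to 435) in alpha, 40.5 in beta and 196 in delta cells, and *Gria3* 56.4, 11.3 and 44.0 CPM. *Ffar4*, a fatty acid receptor under the minimum of UMIs, had 45.4, 5.85 and 54.1 CPM. *Gipr*, the GIP receptor, had 35 UMIs in alpha and 462 in beta cells, a log2 ratio of -1.61, and *Igf1r*, the IGF1 receptor, 27 and 481, a log2 ratio of -2.04. *Gcgr*, the glucagon receptor, had 3 UMIs in alpha and 137 in beta cells, a log2 ratio of -3.40 (-5.70 to -1.83).

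Exocytosis genes had a median near that of all genes against beta cells. Of 18 tested, 0 were higher and 6 lower, where 2.63% and 16.6% of all genes were. Their median was -0.46 beside -0.35 over all genes. With hormones in the total 2 were higher and 1 lower with a median of 0.43. Less the median of all genes, 1 was higher and 4 lower, with a median of -0.11. *Sytl4*, granuphilin, had 16.8 CPM in alpha and 359.5 CPM in beta cells. *Cadps*, a priming factor of dense core granules, had 125 CPM in alpha, 139.5 in beta and 30.5 in delta cells, and *Cplx2*, a complexin, 109, 94.3 and 257 CPM.

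Genes of protein folding and stress in the endoplasmic reticulum were for the most part lower than in beta cells on this scale. Of 17 tested, 10 were lower and 1 higher, where 16.6% and 2.63% of all genes were, with a median of -1.23. But with hormones in the total 2 were lower and 2 higher with a median of -0.35, and less the median of all genes 7 were lower and 2 higher. *Hspa5*, the chaperone BiP, had 469 CPM (431 to 510) in alpha, 1167 in beta and 707 in delta cells. *Manf* had 656, 1790 and 653 CPM, *Dnajb9* 206, 754 and 460.1 CPM, and *Sdf2l1* 83.3, 359 and 169 CPM. *Atf3*, a factor of the stress response, was the higher gene, at 424 CPM in alpha, 72.5 in beta and 223 in delta cells. Against delta cells 2 of 14 were lower and 0 higher, where 5.86% and 3.69% of all genes were, with a median of -0.44.

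Immediate early genes, which dissociation also induces, were within 2-fold of beta cells where tested. Of 10 tested against delta cells, 5 were lower, where 5.86% of all genes were. Against beta cells 0 of 12 passed 2-fold, where 2.63% of all genes were higher and 16.6% lower. Their median was 0.21, and 8 were higher with hormones in the total. Against delta cells 0 were higher and the median was -0.98, with 3 of 10 lower less the median of all genes and 6 with hormones in the total. *Btg2* and *Dusp1* had log2 ratios over delta cells of 0.01 and 0.12. *Jun* had 1052 CPM in alpha, 684 in beta and 2439 in delta cells, and *Egr1* 363, 442 and 954 CPM. The share of mitochondrial transcripts also differed between these classes, as given above, and its part in this was not tested. Of 98 genes named *Rpl* or *Rps*, 85 were tested against beta cells, 4 were higher, *Rpl13a*, *Rps15a*, *Rps26* and *Rpl13*, and the 2 that were lower, *Rps6ka2* and *Rpl7l1*, are not ribosomal proteins. Their median was 0.58, or 1.47 with 75 higher when hormones were in the total and 0.93 with 30 higher less the median of all genes.

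Among the 15 genes lowest in alpha cells against beta cells, *Npy*, a peptide of the neuropeptide Y family, had 8 UMIs in alpha and 1450 in beta cells, a log2 ratio of -5.39 (-6.61 to -4.41). *Bace2*, a protease of the beta cell surface, had 10 and 1665 UMIs, and *Prlr*, the prolactin receptor, 61 and 5823 UMIs. *Ucn3*, a peptide of mature beta cells, had 22 and 2151 UMIs, *Hadh*, a beta-oxidation enzyme, 42 and 4169, and *Enho*, which encodes adropin, 46 and 4737. The others of the 15 lowest were *Slc2a2*, *Trpm5*, *G6pc2*, *Pcsk1*, *Prss53*, *Ppp1r1a*, *Cox6a2*, *Fkbp1b* and *Gm27168*, the last with 1 UMI in alpha and 362 in beta cells.

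Against delta cells the lowest were *Ly6h*, with 2 UMIs in alpha and 264 in delta cells (log2 ratio -9.05, -12.11 to -7.19), and *Fam159b*, with 10 and 301. *Cd24a*, a surface glycoprotein, had 8 and 180 UMIs and *Fabp5*, a fatty acid binding protein, 9 and 96. *S100a10*, *Tspan8*, *Enho*, *Fam46a*, *Hadh* and *Chgb* completed the 10, from -4.32 to -2.76. *Enho* and *Hadh* were thus among the lowest in alpha cells against both classes. Of genes tested in both comparisons, 44 of 1975 (2.23%) were lower than in both.

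Transcripts of beta cells were present in every alpha cell, and their amounts were compared with those in beta cells. Alpha cells held 54121 *Ins2* UMIs, 0.771% of the beta cells' total. If all came as a fixed part of beta cell RNA, *Ins1* should stand at that same part, and 20066 UMIs were counted against 18986 so scaled, a ratio of 1.06 (1.04 to 1.07). The ratio was 1.00 (0.746 to 1.32) for *G6pc2*, 0.818 (0.499 to 1.27) for *Slc2a2*, 0.716 (0.308 to 1.41) for *Npy* and 1.33 (0.830 to 2.01) for *Ucn3*. The intervals of these 4 genes include 1. *Ins2* itself chose both classes, and the rule keeps it under 10% in alpha cells, so the scaled counts are a description. *Iapp* lay above 1, at 1.29 (1.27 to 1.31), as did *Ppp1r1a*, an inhibitor of protein phosphatase 1, at 1.55 (1.24 to 1.91), and so did the factors *Mafa* at 1.89 (1.27 to 2.70), *Nkx6-1* at 2.53 (1.79 to 3.49) and *Pdx1* at 3.59 (2.04 to 5.88, from 16 UMIs).

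In beta cells the same sum gave other ratios. *Gcg* in beta cells stood at 29585 UMIs, and scaled by it *Ttr* was 4.29 times (4.22 to 4.37), *Etv1* 6.70 times and *Cryba2* 10.8 times what a fixed part of alpha cell RNA would give. Among the 10 genes scaled, *Higd1a* was nearest to 1, at 2.00 (1.52 to 2.59). Its interval overlapped those of *Irx1* at 2.58 (1.52 to 4.15) and *Slc38a5* at 2.79 (1.44 to 4.97). *Gcg* itself chose both classes, and the rule caps it at 3% in beta cells.

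**Figure D4:**
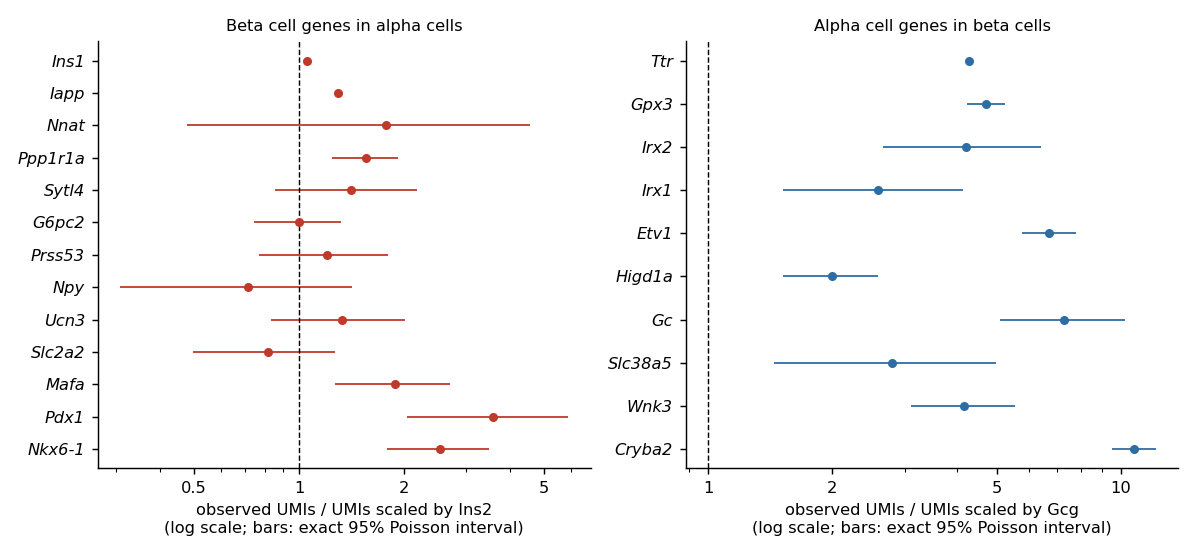
UMIs observed in one cell class divided by the UMIs expected if all came as a fixed part of the other class's RNA (x axis, log scale; bars are exact 95% Poisson intervals; the dashed line marks 1). Left, 13 beta cell genes in alpha cells, scaled by Ins2, where Ins1, G6pc2, Slc2a2, Npy and Ucn3 lie near 1 and Pdx1, Nkx6-1 and Mafa above it. Right, 10 alpha cell genes in beta cells, scaled by Gcg, which all lie above 1, Higd1a nearest.

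Acinar transcripts were found in alpha cells in about the same number as in the other classes. All 10 acinar markers had UMIs, and together they came to 9.56 UMIs per alpha cell, 9.64 per beta cell and 10.5 per delta cell, against 1590 per acinar cell. *Try5*, thinned to 500 UMIs, was in 27.9% of alpha, 14.2% of beta and 34.0% of delta cells. Of the acinar markers 0 of 10 passed 2-fold against beta or delta cells, also less the median of all genes. With hormones in the total, 9 of 10 were higher than in beta cells, with a median log2 ratio of 1.20. Against delta cells 0 of 10 passed 2-fold on that scale. Endothelial, mesenchymal and macrophage markers were low: 5 of 8 of each had any UMI, with 22, 26 and 116 UMIs in all alpha cells. The 9 genes of dividing cells had 28 UMIs together. Ductal markers had more, with 806 UMIs in alpha cells, or 678 CPM against 942 in beta and 1319 in delta cells. The epsilon marker *Arg1* had 80 UMIs in alpha cells, or 67.3 CPM against 4.48 in beta and 240 in delta cells. Of the 8 delta markers, *Hhex* had 1 UMI and *Ghsr* 0, whereas *Rbp4*, a retinol carrier, had 1769 CPM in alpha, 188 in beta and 10035 in delta cells.

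*Pyy*, which encodes peptide YY and was not part of the rule, was a second abundant hormone transcript of alpha cells. It took 1.58% of alpha UMIs, 0.0338% of beta and 4.26% of delta UMIs, and after thinning was found in 87.1% of alpha, 9.07% of beta, 99.8% of delta and 13.5% of acinar cells. *Ppy*, pancreatic polypeptide, was found after thinning in 42.6% of alpha, 4.17% of beta, 80.8% of delta and 5.41% of acinar cells. In alpha cells both shares were far above those of acinar cells, whose counts rest on 37 cells. The rule keeps *Ppy* under 2% in alpha cells, while the delta class has no such limit. It left out 400 barcodes with a median *Pyy* share of 3.33%, so the alpha and delta shares of both genes are a description.

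*Ppy* and *Pyy* varied together among alpha cells, as the plot of their shares shows. In 1891 alpha cells with *Ppy* under 0.5% the median *Pyy* share was 0.737%, in 225 cells at 0.5% to 1% it was 1.83%, and in 260 cells at 1% to 2% it was 2.11%. The 400 barcodes left out for *Ppy* had a median *Ppy* share of 3.83%, a median *Pyy* share of 3.33% and a median *Gcg* share of 30.1%. Their levels of *Irx2* and *Etv1* were near those of the alpha cells, with *Irx2* at 118 and 123 CPM and *Etv1* at 716 and 671 CPM. *Ttr* was lower in them, at 39463 CPM (38585 to 40357) against 68518 CPM, and *Gpx3* was higher, at 2256 CPM (2049 to 2477) against 1729 CPM. Without the limit on *Ppy* the class had 2772 cells and 48 genes higher than in both other classes.

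Within the class, few genes had a variance between cells more than 2 times that from counting alone. Over 730 genes with at least 200 UMIs in alpha cells, the median ratio of these variances was 1.02. For genes with few UMIs per cell this ratio stays near 1 even where cells differ. A ratio near 1 therefore does not show that the class is uniform. The ratio was above 1.5 for 48 genes and above 2 for 29 genes. *Pyy* was highest at 18.2, followed by *Ttr* at 17.1 and *Gcg* at 13.4. Others above 2 were *Ins2*, *Iapp* and *Ins1*, *Ppy* at 7.47, acinar genes such as *Ctrb1* at 12.9 and *Prss2* at 6.27, and mitochondrial genes such as *mt-Co1* at 2.86. The heat shock genes *Hspb1* at 4.82 and *Hspa1a* at 2.13, named after their values were seen, were also above 2, and the 5% of cells richest in *Hspb1* held 50.6% of its UMIs.

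Alpha cells with more *Gcg* also had more *Ttr* and *Gpx3*. The 248 cells with *Gcg* at 15% to 25% had *Ttr* at 42470 CPM (41307 to 43657), the 1093 cells at 25% to 35% had 61219, the 919 cells at 35% to 45% had 80914, and the 116 cells at 45% or more had 87235 (84909 to 89609). *Gpx3* went from 1143 CPM (959 to 1352) over 1470 and 2044 to 2700 CPM (2303 to 3144) in the same order. *Ddit3*, a stress factor also known as CHOP, went from 168 CPM (103 to 260) over 95.2 and 57.1 to 16.4 CPM (0.414 to 91.2), the last from 1 UMI.

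The median depth rose over these bands from 617 to 705, 828 and 969.5 UMIs, and the mitochondrial share went from 6.53% to 5.20%, 4.01% and 3.26%. *Try5* stood at 2453, 1309, 1139 and 1096 CPM. The part of depth, of mitochondrial content and of acinar RNA in the differences between bands was not tested. *Etv1*, at 664, 684, 674 and 539.9 CPM, had intervals that all overlapped. *Pyy*, at 23348, 29625, 25326 and 18553 CPM, was highest in the second band.

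**Figure D5:**
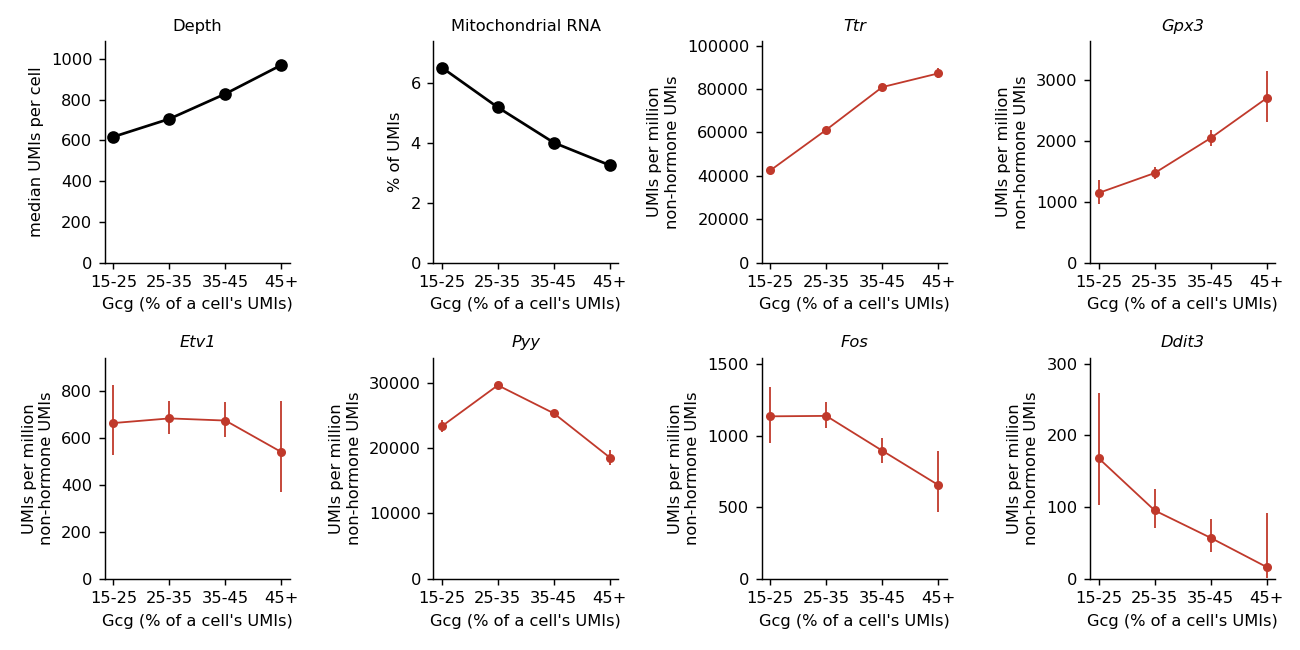
Alpha cells in 4 bands of Gcg share (x axis, % of a cell's UMIs): median UMIs per cell, mitochondrial share of UMIs, and the level of 6 genes in CPM of UMIs without hormones, with exact 95% Poisson intervals; y axes start at 0. Ttr goes from 42470 to 87235 CPM and Gpx3 from 1143 to 2700 CPM, Ddit3 goes from 168 to 16.4 CPM, Fos from 1134 to 654 CPM, and Pyy is highest in the second band.

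The same rule was applied to the mutant libraries only to see whether the leading genes marked their alpha cells too. It took 158 barcodes at 1 week, with a median of 20094 UMIs beside 619 in the beta class and with only 22 delta cells, and 2514 at 5 weeks, with a median of 1801 UMIs. At 1 week, 17 of the 19 leading genes tested were at least 2-fold higher in alpha than in beta cells, all but *Slc7a2* and *Vgf*, where 4.26% of all genes were. At 5 weeks, 24 of 25 were, all but *Vgf*, where 6.59% of all genes were. *Vgf* was at 53.0 CPM in alpha and 11.5 CPM in beta cells in WT, at 40.8 and 88.5 CPM at 1 week and at 80.1 and 143 CPM at 5 weeks, so its log2 ratio was 2.20 in WT but -1.12 and -0.84 in the mutant libraries. Against delta cells it was 15 of 18 at 1 week, all but *Cryba2*, *Sfrp5* and *Upp1*, and 25 of 25 at 5 weeks, where 7.78% and 2.85% of all genes were. *Ttr* stood at 68518 CPM in WT, 10688 CPM at 1 week and 32051 CPM at 5 weeks, and *Irx1* at 146, 163 and 204 CPM. These levels come from libraries that differ in depth, animals and sex-linked transcripts and were not compared by a test.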

How the data were processed

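The authors deposited 1 table of counts per library, in which each whole number is the UMIs of a gene in a barcode, without normalization (median 1396 UMIs per WT barcode). Per the labels, 10X Genomics Chromium 3' libraries were made from sorted live islet cells, and the submitters' processing notes name bcl2fastq 2.17.1.14, Cell Ranger 3.1, mm10 and Seurat 3.1.4. The authors removed cells high in hormones of more than 1 class and DoubletFinder doublets from the WT library and scaled it to 12000 cells, and no further doublet caller was run here. A correction for free RNA is not given in the sources used here, and the values above are uncorrected.

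Cells were classed by hormone shares, and the 37 acinar cells by 10 acinar markers at 20% or more of UMIs with *Ins2* under 10% and *Gcg* under 5%. UMIs were summed per class (Python 3.11.15, numpy 2.4.6) and intervals computed (scipy 1.17.1). Sums were divided by the total without 7 hormones. Ratios have exact conditional intervals, levels exact Poisson and shares exact Clopper-Pearson intervals, all at 95%. A gene was tested for size, not for significance, with at least 100 UMIs in the 2 classes together and a 2-fold limit. A count of 0 allows up to 3 UMIs over the class. On counts simulated with counting error alone, 95.8% of intervals held the true ratio for alpha against beta cells (6724 genes, 200 of them changed). For alpha against delta cells (1978 genes) it was 96.5%. This checks the calculation of the intervals and leaves out the spread between cells. The genes named are the 5 markers, listed genes with at least 20 UMIs over the classes, the 25 genes highest in alpha over both classes, the 15 lowest against beta and the 10 lowest against delta cells, ranked by the bound nearest to 0. Some genes that these rules name are not reported here, though they enter the counts. The cells, the gene lists and the rules were chosen with earlier results of these data known. Promoters and positions are from RefSeq tables for GRCm38.p6.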

Additional observations from a re-analysis of the deposited data

How the results depend on the processing

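No paired analysis was possible because each condition has 1 library. The number of alpha cells was 2376 and lay between 2128 and 2772 with *Gcg* limits of 10% and 25%, an *Ins2* limit of 5%, no *Ppy* limit or no shared barcodes, and was 521 among cells with at least 1000 UMIs. In those deeper cells the genes higher than in delta cells fell from 73 to 28 and the lower ones from 116 to 37. Those higher than in both classes fell from 43 to 18. Fewer genes reached the minimum there, 557 in place of 1978 against delta cells, so these counts have unlike bases. With hormones in the total, 1365 genes were higher and 322 lower than in beta cells, in place of 177 and 1118, and 180 were lower than in delta cells. Less the median ratio, an alternative chosen after seeing the data like the removal of the *Ppy* limit and of shared barcodes, the counts against beta cells were 347 and 637. A floor of 20 UMIs gave 573 and 1931 genes against beta cells, 401 and 907 against delta cells and 137 higher than both, and a floor of 500 UMIs gave 49, 345, 17, 14 and 14. Under the other alternatives, which were the cell mean, thinning to 500 UMIs and subtraction of free RNA, each count stayed within 1.5 times its main value. Of the 40 named ratios against beta cells and 32 against delta cells, 0 reversed under any alternative, and each stayed past 2-fold except in cells with at least 1000 UMIs, where 28 of the 32 against delta cells did. Depth limits what single cells show, at a median of 443 UMIs outside the hormones.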
